A study of Mus musculus with 2 samples.

Results

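Reln, Trp73 and 8 further genes used to recognise Cajal-Retzius cells were followed across all cells of 2 single-cell libraries from the newborn mouse forebrain. The set was Reln, Trp73, Lhx1, Lhx5, Ndnf, Ebf2, Ebf3, Nhlh2, Calb2 and Cacna2d2, chosen by gene symbol, and it makes up 10 of the 28001 features in each matrix. All 10 had the 10 unique molecular identifiers (UMIs, counted RNA molecules) over both libraries together that were asked of a gene before its libraries were compared. The study asked what P73+ Cajal-Retzius cells and Reelin contribute to the shaping of the cortex, as its title states. One library came from wild-type animals and the other is labelled Gmnc-/-, from littermates, all on the C57BL/6J strain and collected at postnatal day 0. Each library pooled 4 animals of its genotype, and the Gmnc-/- animals came from 2 litters. The tissue, taken from both hemispheres, was the lateral and dorsal cortex with the hippocampus; it was enzymatically dissociated and loaded on the 10x 3′ v3.1 system. With 1 library per genotype there is no replicate, so no test was made between genotypes. The exact 95% intervals given below cover counting error only, not the spread between animals, dissociations or libraries. The labels do not say which part of Gmnc is deleted, and Gmnc itself measured 0.812 CPM (UMI counts of a gene scaled by the summed UMIs of the cells counted) among wild-type and 0.821 CPM among Gmnc-/- cells, so its 3′ counts do not check the genotype.

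Cajal-Retzius cells are early-born neurons of the outermost cortical layer and the hippocampal fissure, and they secrete Reelin, the large extracellular glycoprotein encoded by Reln that guides the layering of later-born neurons. Most of those in the dorsal and medial cortex arise at the cortical hem and neighbouring borders and express Trp73, which encodes the p53 family transcription factor p73. Trp73 is also part of the programme of multiciliated ependymal cells, and Gmnc encodes GemC1, a geminin family protein that starts that programme. After birth, Reln is also made by subsets of interneurons, so Reln alone does not mark a Cajal-Retzius cell.

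The cell filter passed 10938 wild-type and 26178 Gmnc-/- barcodes. After called doublets were removed, 10478 and 21184 cells were kept, with a median of 5994.5 and 4484 UMIs per cell. The libraries differed in ways that bear on the counts below. A mitochondrial share of 10% or more was found in 1452 wild-type and 62 Gmnc-/- barcodes, and doublets were called in 4.21% and 19.1% of filtered cells. Cells with Xist and no Y-linked counts (female pattern) numbered 7088 in the wild-type and 9675 in the Gmnc-/- library, against 1585 and 5430 with the male pattern. The libraries shared 85 barcodes, 54 of them kept, and none was a wild-type Cajal-Retzius-like cell. For Gmnc-/- cells of that class this was not checked.

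Promoters of 6 of the 10 genes were matched by symbol in RefSeq (GRCm38.p6); those of Lhx5, Ndnf, Ebf2 and Calb2 were not matched. The 250 bases before the RefSeq start are printed for Reln, for both Trp73 starts and for Lhx1, since these 3 genes were among those lowest in the Gmnc-/- library. Each is given 5′ to 3′ on the strand of the gene, and capitals mark CAGCTG, an E-box of the kind bound by basic helix-loop-helix factors.
Reln, chr5:22344706-22344955, minus strand: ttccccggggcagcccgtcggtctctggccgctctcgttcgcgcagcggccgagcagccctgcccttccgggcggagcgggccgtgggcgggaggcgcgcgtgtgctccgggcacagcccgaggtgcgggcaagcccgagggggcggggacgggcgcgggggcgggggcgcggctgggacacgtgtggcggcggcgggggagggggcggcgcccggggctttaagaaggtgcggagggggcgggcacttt
Trp73 upstream start, chr4:154139876-154140125, minus strand: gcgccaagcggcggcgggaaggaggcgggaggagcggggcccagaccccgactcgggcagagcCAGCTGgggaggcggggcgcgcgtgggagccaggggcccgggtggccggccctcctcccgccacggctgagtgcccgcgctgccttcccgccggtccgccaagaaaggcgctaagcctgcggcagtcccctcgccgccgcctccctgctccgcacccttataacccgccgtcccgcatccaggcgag
Trp73 internal start, chr4:154097174-154097423, minus strand: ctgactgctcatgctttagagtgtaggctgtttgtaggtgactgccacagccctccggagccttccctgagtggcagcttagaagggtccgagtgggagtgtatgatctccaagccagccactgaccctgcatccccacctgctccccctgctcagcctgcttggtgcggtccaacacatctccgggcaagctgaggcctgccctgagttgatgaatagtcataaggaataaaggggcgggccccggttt
Lhx1, chr11:84525535-84525784, minus strand: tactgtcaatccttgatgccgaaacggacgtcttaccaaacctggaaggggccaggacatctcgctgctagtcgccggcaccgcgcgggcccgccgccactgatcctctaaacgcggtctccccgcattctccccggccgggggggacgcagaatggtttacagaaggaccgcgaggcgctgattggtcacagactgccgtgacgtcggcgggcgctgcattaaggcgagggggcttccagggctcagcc

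The Reln window held 80% G and C with 37 CpG dinucleotides, and the upstream Trp73 window held 77.2% with 31. The internal Trp73 window held 58.4% with 6 CpG dinucleotides, near the median over all 32851 windows of 52.4% and 6. CAGCTG, which reads the same on both strands, was found in the upstream Trp73 window alone among the 7 windows of the set and in 13% of all windows. TAATTA, the core letters of many homeodomain sites and also the same on both strands, was in none of the 7 and in 4.84% of all windows. The palindromic core patterns of Ebf sites and of p53 family sites were in none of the 7 either, against 0.779% and 0.49% of all windows. The counts were made from 3′ ends and cannot tell the 2 Trp73 starts apart. The Lhx1 window also holds the start of Lhx1os, a gene on the other strand with 124 bases between it and Lhx1, and its values are given last.

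Clustering placed 37 wild-type cells and 1 Gmnc-/- cell in the cluster that was named Cajal-Retzius-like from these 10 genes. It held 0.353% of wild-type cells (0.249 to 0.486) and 0.00472% of Gmnc-/- cells (0.00012 to 0.0263). The 37 wild-type cells included 28 of the 7088 female-pattern and 2 of the 1585 male-pattern cells. The Gmnc-/- cell was 1 of 9675 with the female pattern, and 0 of 5430 male-pattern cells lay in the cluster. The part of the animals' sex in these shares was not tested. The name rests on the genes described here, so their levels in this cluster are a description and no test. Trp73 was left out of this clustering already. When all 10 genes were left out, the cluster again held 37 wild-type cells, 37 of them shared, and the same Gmnc-/- cell. Its name there still came from the 10 genes. Reln (ENSMUSG00000042453; mm10 chr5:21884454-22344702, minus strand, protein-coding) was found in 35 of the 37 wild-type cells. Trp73 (ENSMUSG00000029026) lies at chr4:154056253-154140208 on the minus strand in the GENCODE annotation, whose outer start lies beyond the RefSeq one, so the upstream Trp73 window printed above falls inside that gene. Of the others, one held 1024 UMIs of Gnrh1, the gonadotropin-releasing hormone gene, with no Reln, Trp73 or Ndnf; the other held 22 UMIs of Sst, an interneuron peptide, and none of the 10 genes.

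In the 35 Reln-bearing wild-type cells, Reln ran from 13 to 179 UMIs per cell with a median of 72, and Trp73 from 0 to 9 with a median of 2. Trp73 was found in 32 of them. Ndnf, which encodes a secreted neuron-derived factor, was found in 35 of 35, at 1 to 50 UMIs with a median of 16. Cacna2d2, an auxiliary subunit of voltage-gated calcium channels, was found in 33. The transcription factor genes were found less completely: Ebf3 in 25 cells, Lhx1 in 21, Nhlh2 in 21, Lhx5 in 19 and Ebf2 in 10. Calb2, the gene of the calcium-binding protein calretinin, was found in 24. With each cell thinned to 2000 UMIs, Trp73 was found in 55.9%, Lhx1 in 26.5% and Ndnf in 97.1% of the 34 cells deep enough. All 10 genes together were found in 3 cells.

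**Figure D1:**
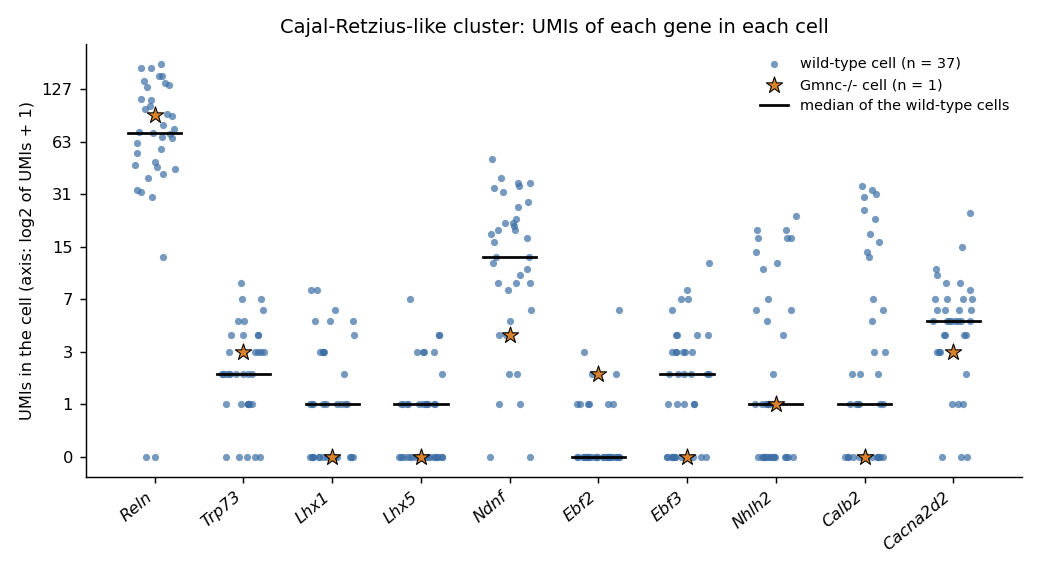
Each point is 1 cell of the Cajal-Retzius-like cluster and its height is the number of UMIs of the gene in that cell (axis: log2 of UMIs + 1). Blue points are the 37 wild-type cells, black bars their medians and the star the single Gmnc-/- cell, which holds 90 Reln UMIs and no UMI of Lhx1, Lhx5, Ebf3 or Calb2.

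The single Gmnc-/- cell held 90 Reln UMIs among 5889, or 15283 CPM, within the range of 2184 to 34043 CPM of the wild-type Reln-bearing cells. It also held 3 Trp73, 4 Ndnf, 3 Cacna2d2, 2 Ebf2 and 1 Nhlh2 UMIs. Lhx1, Lhx5, Ebf3 and Calb2 were at 0 there. None of the 10 interneuron, 10 astroglial or 5 ependymal markers had a UMI in it, and 3 of the 8 excitatory neuron markers did.

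The wild-type cells of the cluster were not alike. Across the 35 Reln-bearing cells, the CPM values of Calb2 and Nhlh2 were higher in deeper cells (Spearman's rho 0.76 and 0.74), and that of Reln was lower in them (rho -0.63). Calb2 and Nhlh2, which encodes a basic helix-loop-helix factor, went together (rho 0.60), while Reln and Nhlh2 went opposite ways (rho -0.66). These values describe cells of 1 pooled library that share their depth as divisor, and the part of depth in them was not tested.

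The genes differed in how much of their RNA lay in these few cells. In the wild-type library the Cajal-Retzius-like cells carried 68.1% of Reln UMIs (66.7 to 69.5), 57.7% of Lhx1, 54.1% of Ndnf, 52.6% of Lhx5 and 50.3% of Ebf3 UMIs. They carried 29.8% of Cacna2d2, 26.8% of Nhlh2 and 25.9% of Ebf2 UMIs. Trp73 was split, with 22.6% of its UMIs in Cajal-Retzius-like and 55.8% in ependymal-like cells. Calb2 lay mostly elsewhere, with 9.26% of its UMIs in the cluster. In the Gmnc-/- library the single cell carried 7.87% of all Reln UMIs and 20% of the 15 Trp73 UMIs.

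**Figure D2:**
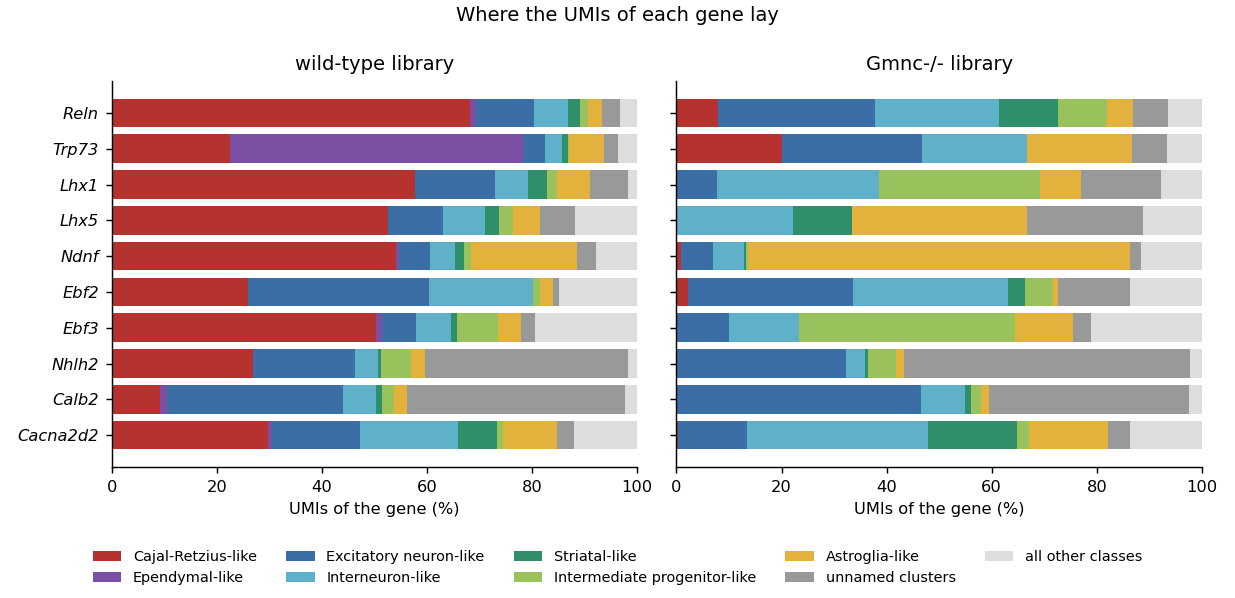
Bars divide the UMIs of each gene (x axis, percent) among cell classes in the wild-type (left) and Gmnc-/- library (right). Red marks the Cajal-Retzius-like cells, which hold 68.1% of wild-type Reln UMIs and 7.87% of Gmnc-/- ones, and purple the ependymal-like cells, which are present in the wild-type library only.

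Over all kept cells, Reln measured 56.1 CPM (54.5 to 57.8) among wild-type and 10.5 CPM (9.95 to 11.2) among Gmnc-/- cells, a ratio of 0.188 (0.176 to 0.201). Trp73 was at 5.51 CPM (5.0 to 6.05) and 0.138 CPM (0.0775 to 0.228), a ratio of 0.0251 (0.0139 to 0.0419). A ratio of 0.5 or less was found for 6 of the 10 genes, namely Reln, Trp73, Lhx1, Lhx5, Ndnf and Ebf3, against 8.60% of the 20023 genes compared. With the stricter demand that the upper bound of the interval be at 0.5 or less, the count was again 6, against 3.94%. No gene of the set was at 2 or more, against 3.53% of all genes. The median ratio of the 10 was 0.343 and that of all genes compared 1.02. In sums over a library such as these, fewer cells of a type and less RNA per cell cannot be told apart. In the smaller group of male-pattern cells the count was 3 (Reln, Trp73 and Lhx5; background 6.01%), and with 5 CPM added to both values it was 3 (Reln, Trp73 and Ndnf; background 0.979%). Among male-pattern cells Lhx1 had 3 wild-type UMIs and 1 Gmnc-/- UMI, under the 10 asked for. The ratios of Ndnf (0.537) and Ebf3 (0.564) lay above 0.5 there.

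**Figure D3:**
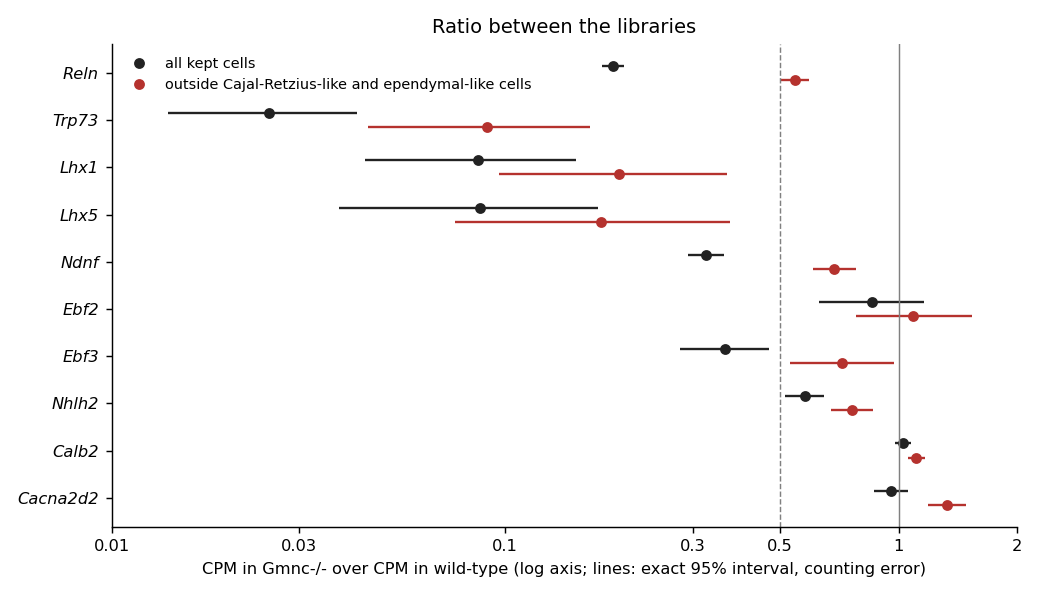
Points give the CPM in the Gmnc-/- library over that in the wild-type library (log axis) for each gene, with exact 95% intervals for counting error. Over all kept cells (black) 6 of 10 genes lie at or under 0.5 (dashed line); outside Cajal-Retzius-like and ependymal-like cells (red) Trp73, Lhx1 and Lhx5 do.

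Once the Cajal-Retzius-like cells were set aside, Reln measured 18.0 CPM (17 to 18.9) among wild-type and 9.72 CPM (9.14 to 10.3) among Gmnc-/- cells, a ratio of 0.541 (0.499 to 0.586). In female-pattern cells Reln was at 17.6 and 8.18 CPM (ratio 0.466, 0.414 to 0.523). In male-pattern cells it was at 10.4 and 10.4 CPM (ratio 1.01, 0.821 to 1.24). The part of the pooled animals' sex in the difference was not tested.

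Most cells with Reln outside the cluster held little of it. In the wild-type library 610 such cells had 1 Reln UMI, 129 had 2 to 4 and 35 had 5 or more, the highest 94. In the Gmnc-/- library 348 had 1, 122 had 2 to 4 and 42 had 5 or more, the highest 42. Cells with 5 or more are the ones in which Reln stands clear of single stray molecules, and they made up 0.335% of wild-type and 0.198% of Gmnc-/- cells. Of the 35 wild-type cells, 16 were in an excitatory neuron-like cluster led by Fam19a1 and Nrgn, and 4 were in an interneuron-like cluster led by Cntnap5c, Lhx6 and Sst. Of the 42 Gmnc-/- cells, 14 were in that interneuron-like cluster and 8 in that excitatory one.

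The Lhx6 and Sst cluster had the highest Reln level outside the Cajal-Retzius-like cells, at 183 CPM (153 to 218) in 207 wild-type and 141 CPM (122 to 162) in 429 Gmnc-/- cells, a ratio of 0.767 (0.61 to 0.967). A striatal-like cluster led by Isl1 and Ebf1 followed, at 102 CPM (79.0 to 129) and 80.1 CPM (65.1 to 97.6); its ratio of 0.788 had an interval that spans 1 (0.573 to 1.09). The Fam19a1 and Nrgn cluster was at 88.5 CPM (79.7 to 98.1) in 326 wild-type and 43.0 CPM (36.5 to 50.2) in 437 Gmnc-/- cells, a ratio of 0.485 (0.40 to 0.587). Of its 326 wild-type cells, 3 held 5 or more of the 10 genes, and no Gmnc-/- cell of it did. The Reln UMIs of these 3 cells count in the 88.5 CPM and were not set aside. The ratio of this cluster is therefore not that of its other cells alone. Excitatory neuron-like cells of the Nos1 and Unc5d cluster were at 11.9 and 11.6 CPM, and intermediate progenitor-like cells as a class at 16.5 and 17.2 CPM, so in these the libraries did not differ beyond counting error.

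**Figure D4:**
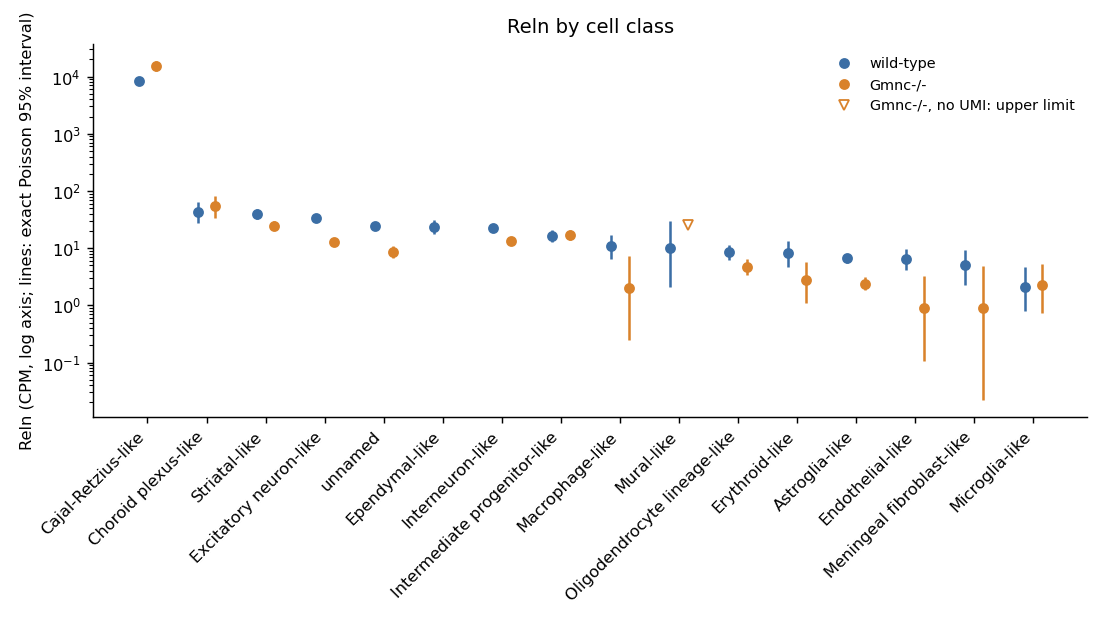
Reln per cell class in the wild-type (blue) and Gmnc-/- library (orange) in CPM on a log axis, with exact Poisson 95% intervals; the open triangle is the upper limit where no UMI was counted. The Cajal-Retzius-like cells stand at 8504 and 15283 CPM (37 cells and 1 cell), and every other class lies below 100 CPM in both libraries.

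Classes that are not known to make Reln carried it at a low level that also differed between the libraries. In 6 non-neural classes together (endothelial, mural, meningeal fibroblast, microglia, macrophage and erythroid) Reln measured 6.16 CPM (4.86 to 7.72) among wild-type and 1.84 CPM (1.07 to 2.95) among Gmnc-/- cells, a ratio of 0.299 (0.166 to 0.511). After thinning to 2000 UMIs, 2.88% of wild-type erythroid-like cells (median depth 4316) had a Reln UMI, beside 2.71% of excitatory neuron-like cells (median depth 4992); unthinned, the shares were 4.70% and 7.27%. In the Gmnc-/- library the thinned shares were 0.92% and 1.39%, at median depths of 3336 and 4203, and unthinned 1.17% and 2.64%. The wild-type erythroid-like share rests on 7 of 243 thinned cells (interval 1.17 to 5.84), and at this depth the thinned excitatory share could not be told from it. Interneuron-like cells were at 4.20% and 1.23% thinned and at 8.21% and 1.99% unthinned. That class included a cluster of 647 wild-type and 1217 Gmnc-/- cells led by Top2a and histone genes, with 0 interneuron markers among its 10 leading genes. Trp73 was at 0.973 CPM in the 6 classes of the wild-type library, and none of 1441 Gmnc-/- cells of those classes had a UMI of it. For each 100 Reln UMIs these wild-type classes held 82.9 of Ndnf and 15.8 of Trp73, against 20.2 and 3.25 in the Cajal-Retzius-like cells. The classes include Ndnf-bearing meningeal fibroblasts; erythroid-like cells alone held 31.2 of Ndnf (5 UMIs) and 12.5 of Trp73 (2 UMIs).

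Trp73 was found in 189 kept wild-type cells. They were 32 Cajal-Retzius-like cells, 86 ependymal-like cells and 71 others, of which 62 held a single UMI. Trp73 was at 277 CPM (224 to 337) in the Cajal-Retzius-like and 105 CPM (92.1 to 119) in the 119 ependymal-like cells, and no ependymal-like cell was found in the Gmnc-/- library. Of its kept cells, 13 held Trp73. One was the Cajal-Retzius-like cell with 3 UMIs, and each of the other 12 had a single UMI and lay outside that class. None of the 13 held 3 or more of the 5 ependymal markers, whereas 93 of the 189 wild-type cells did. Outside both classes Trp73 was at 1.23 CPM (0.998 to 1.51) and 0.111 CPM (0.0572 to 0.193), a ratio of 0.0897 (0.0448 to 0.164).

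Wild-type cells with both Trp73 and Reln came mainly from 2 classes, which differed in how much Reln they held. Unthinned, 65 of 10478 wild-type cells (0.62%) and 2 of 21184 Gmnc-/- cells (0.00944%) held both genes. After thinning, 21 of 8656 (0.243%) and 1 of 18213 (0.00549%) did, a ratio of 0.0226 (0.000547 to 0.141). The 65 cells were 32 Cajal-Retzius-like, 24 ependymal-like, 5 excitatory neuron-like, 1 macrophage-like and 3 of an unnamed cluster. The Cajal-Retzius-like ones held a median of 77 Reln UMIs and of 8 of the 10 genes. The ependymal-like ones held a median of 1 Reln UMI and of 2 of the 10 genes. The median depth of all 119 ependymal-like cells was 17880 UMIs, against 6780 in the 37 wild-type Cajal-Retzius-like cells. Lhx1, Lhx5 and Ebf2 were found in none of the 119 ependymal-like cells. Trp73 was found together with Lhx1 in 22 and with Lhx5 in 18 wild-type cells. Trp73 was found in 39.3% of wild-type cells with Lhx1, 36% of those with Lhx5 and 25.2% of those with Ebf3, but in 5.41% of those with Calb2 and 6.8% of those with Nhlh2. In the Gmnc-/- library Trp73 was in 1 of 11 cells with Lhx1 and in 0 of 8 with Lhx5.

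Counting the genes per barcode gave a view that does not depend on the clusters. Of all deposited barcodes, 58 in the wild-type and 1 in the Gmnc-/- library held 5 or more of the 10 genes. Of the 58, 37 were kept cells, 31 of them Cajal-Retzius-like, 4 were called doublets and 17 fell outside the cell filter. All 17 had a mitochondrial share of 10.2% to 18.9%, and they carried 912 Reln UMIs. Of the 6 kept cells outside the cluster, 3 were in the Fam19a1 and Nrgn cluster and 3 in an unnamed cluster led by Npy and Sst. At 3 or more genes the counts were 121 and 45 barcodes, so the lower demand took in cells of other kinds in both libraries.

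**Figure D5:**
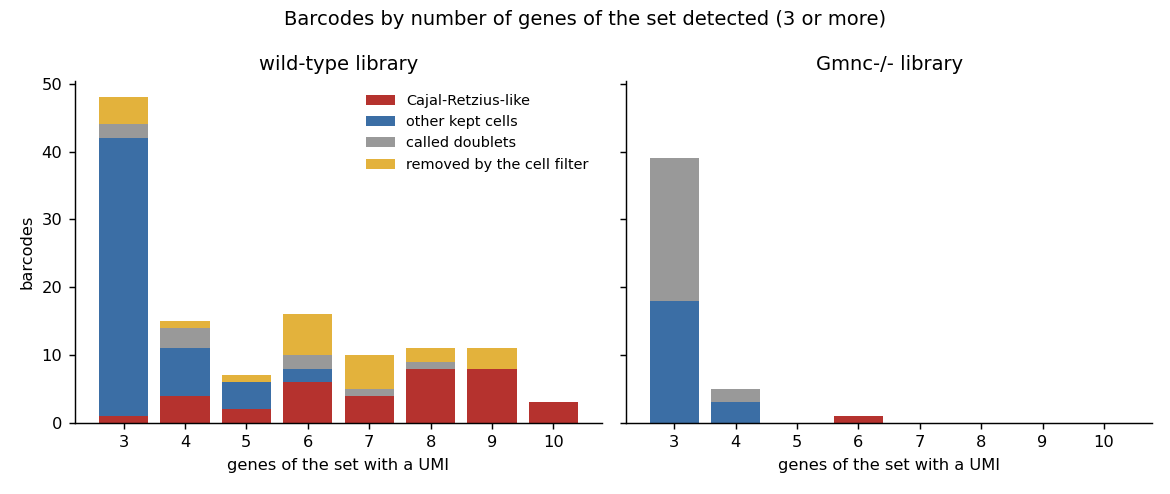
Bars count barcodes (y axis) by how many of the 10 genes had a UMI (x axis, 3 or more) in the wild-type (left) and Gmnc-/- library (right), divided by where the barcode lay. At 5 or more genes there are 58 wild-type barcodes and 1 Gmnc-/- barcode.

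The LIM homeodomain genes Lhx1 and Lhx5 were at low counts and lay mostly in the cluster. Lhx1 had 111 wild-type UMIs (1.41 CPM, 1.16 to 1.7) against 13 Gmnc-/- UMIs (0.12 CPM, 0.0639 to 0.205), a ratio of 0.0852 (0.044 to 0.152). Lhx5 had 76 UMIs and 9, a ratio of 0.0861 (0.0379 to 0.172). Outside Cajal-Retzius-like and ependymal-like cells their ratios were 0.194 (0.0965 to 0.365) and 0.176 (0.0744 to 0.372). With Trp73, these are the 3 of 10 genes at 0.5 or less there, against 6.27% of 19910 genes, and 3 at the stricter demand, against 2.38%. Set beside the 6 non-neural classes of the wild-type library, Trp73 stood at 1.23 CPM outside both classes and 0.973 CPM (0.503 to 1.7) in the non-neural ones, Lhx5 at 0.473 and 0.406 CPM (0.132 to 0.946), and Lhx1 at 0.617 and 0.162 CPM (0.0196 to 0.586). All 3 were at 0 UMIs in the Gmnc-/- non-neural classes, and the part of stray RNA in these ratios was not tested. Of the 35 wild-type cells with Lhx1 outside the cluster 31 had a single UMI, and of the 31 with Lhx5 27 did. A single cell held 9 of the 47 Lhx1 UMIs there. With cells of 5 or more of the 10 genes set aside in place of the cluster, the Lhx1 ratio was 0.268 (0.13 to 0.522). Lhx1 then missed the stricter demand, while the upper bounds of Trp73 (0.162) and Lhx5 (0.409) still met it. In male-pattern cells outside both classes the count was 1 (Trp73; background 5.03%), and Lhx1 and Lhx5 were under the 10 UMIs asked for there. In female-pattern cells the count was 4, with Reln added (background 6.59%).

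The Ebf genes, which encode helix-loop-helix factors of the early B-cell factor family, differed from each other. Ebf3 had 181 UMIs in the wild-type and 90 in the Gmnc-/- library (2.3 and 0.831 CPM), a ratio of 0.362 (0.278 to 0.468). Outside Cajal-Retzius-like and ependymal-like cells its ratio was 0.719 (0.53 to 0.975), and it was found in intermediate progenitor-like cells at 3.39 CPM (1.85 to 5.69) and 5.99 CPM (4.22 to 8.26) and in endothelial-like cells at 4.51 and 4.03 CPM. Ebf2 had 81 UMIs and 95 (1.03 and 0.877 CPM), and its ratio of 0.853 had an interval that spans 1 (0.627 to 1.16). Single cells weighed on Ebf2: 1 excitatory neuron-like cell held 25 of the wild-type UMIs and 1 held 17 of the Gmnc-/- UMIs, with no Trp73 in either.

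Nhlh2 was at 8.79 CPM (8.15 to 9.47) and 5.08 CPM (4.66 to 5.52), a ratio of 0.577 (0.515 to 0.646). Its other main site was an unnamed cluster led by Tac2, Calb2, Neurod1 and Lhx9, with 219 wild-type and 504 Gmnc-/- cells. Nhlh2 was at 131 CPM (115 to 149) and 94.9 CPM (84.0 to 107) there, a ratio of 0.725 (0.607 to 0.866). That cluster held 34.2% of wild-type and 50.2% of Gmnc-/- Nhlh2 UMIs.

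Calb2 was the gene of the set with the smallest share of its wild-type UMIs in Cajal-Retzius-like cells (9.26%). Over all kept cells it was at 37.4 CPM (36.1 to 38.8) and 38.4 CPM (37.2 to 39.5), a ratio of 1.03 (0.978 to 1.08). The Tac2 and Calb2 cluster carried 38.1% of its wild-type and 36.0% of its Gmnc-/- UMIs, at 620 CPM (584 to 657) and 515 CPM (489 to 541). An excitatory neuron-like cluster led by Fam163a and Zfp385b was at 323 CPM (293 to 356) and 291 CPM (272 to 310). Calb2 was at 770 CPM (682 to 867) in wild-type Cajal-Retzius-like cells, and no Calb2 UMI was counted in the single Gmnc-/- cell.

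Ndnf was at 14.3 CPM (13.4 to 15.1) and 4.61 CPM (4.22 to 5.04), a ratio of 0.324 (0.291 to 0.36). Its other main site was astroglia-like cells, with 12.3 CPM (10.7 to 14.0) among wild-type cells against 15 CPM (13.5 to 16.7) among Gmnc-/- cells, which held 72.8% of the UMIs in their library. Meningeal fibroblast-like cells were at 16.6 and 18.6 CPM. In excitatory neuron-like, interneuron-like and striatal-like cells it was lower in the Gmnc-/- library, at 4.46 and 1.18, 4.28 and 1.4, and 8.08 and 0.385 CPM. Erythroid-like cells also differed in that direction, at 2.52 CPM (0.819 to 5.89; 5 UMIs) and 0.392 CPM (0.0099 to 2.18; 1 UMI), and the part of stray RNA in the neuronal values was not tested.

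Cacna2d2 over all kept cells was at 8.85 CPM (8.2 to 9.53) and 8.44 CPM (7.91 to 9.01), a ratio of 0.955 (0.864 to 1.05). The Cajal-Retzius-like cells carried 29.8% of the wild-type UMIs and 0.328% of the Gmnc-/- ones. Outside Cajal-Retzius-like and ependymal-like cells it was higher in the Gmnc-/- library, at 6.36 CPM (5.8 to 6.95) and 8.42 CPM (7.88 to 8.98), a ratio of 1.32 (1.18 to 1.48). The same direction was seen in interneuron-like cells (10.5 and 15.3 CPM), striatal-like cells (20.6 and 29.8 CPM) and astroglia-like cells (3.91 and 5.66 CPM), and the opposite one in excitatory neuron-like cells (7.91 and 4.58 CPM).

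Of 11 genes on the receiving side of the Reelin pathway, 0 were at 0.5 or less and 0 at 2 or more over all kept cells, against 8.60% and 3.53% of all genes, so the count does not set the list apart. Their median ratio was 1.28 beside 1.02 for all genes. Lrp8, a Reelin receptor, was at 137 and 233 CPM (ratio 1.71, 1.67 to 1.74). Vldlr, the other main receptor, was at 24.8 and 31.8 CPM (ratio 1.28, 1.21 to 1.35). Dab1, the adaptor that both receptors use inside the cell, was at 289 and 352 CPM (ratio 1.22, 1.2 to 1.24). The 9 interneuron markers had a median ratio of 1.46, with Gad1 at 52.2 and 90.5 CPM, and the part of the mix of neurons in the pathway values was not tested.

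Of 13 further genes linked to Cajal-Retzius cells, 3 were at 0.5 or less and 1 at 2 or more, against 8.60% and 3.53% of all genes, with a median ratio of 0.659. Outside Cajal-Retzius-like and ependymal-like cells 1 of the 13 was at 0.5 or less, against 6.27%, and the median was 0.736. Snhg11, a long non-coding RNA gene, was the one of them that lay mostly in the cluster, with 56.1% of its wild-type UMIs there. It measured 26.2 CPM among wild-type and 9.46 CPM among Gmnc-/- cells (ratio 0.361, 0.335 to 0.389), and at a ratio of 0.829 outside Cajal-Retzius-like and ependymal-like cells. Zic2 and Mab21l1 were the others at 0.5 or less. Zic2 (ratio 0.497) had 1.37% of its wild-type UMIs in the cluster and a ratio of 0.501 outside both classes. Mab21l1 (0.176) rested on 29 and 7 UMIs. Ratios below 1 were found for 9 of the 13. Islr2 (1.87), Tbr1 (1.20), Diablo (1.02) and Mab21l2 (3.64, from 2 and 10 UMIs) lay above 1. Of 8 measured genes of the multiciliated programme that shares Trp73, 5 were at 0.5 or less, against 8.60% of all genes. Outside Cajal-Retzius-like and ependymal-like cells the count was 2 of 8, against 6.27%, and the median ratio 0.782. Over all kept cells Foxj1, a master factor of motile cilia, was at 24.3 and 3.38 CPM, and Mcidas, a partner of GemC1, at 7.07 and 0.102 CPM.

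Over 38 profiles of cell class by library, the 5 genes outside the set with levels most like Reln were Barhl2 (Pearson's r 0.873), Gdf5 (0.856), Ndst4 (0.848), Syndig1l (0.842) and Lhx1os (0.842). Lhx1os, the neighbour of Lhx1 on the other strand, had 67.1% of its 76 wild-type UMIs in the Cajal-Retzius-like cells and 11 UMIs in the Gmnc-/- library. For Trp73, Gpr135 (0.959), Gdf5 (0.862), Hpcal4 (0.838) and Cpeb1 (0.825) were among the most alike. Trp73 and Reln themselves had an r of 0.74 over these profiles. The profiles share their libraries and include classes of unequal size. A profile needed at least 20 cells, so the Cajal-Retzius-like class entered from the wild-type library alone. Reln was at 8504 CPM in that profile, and its class was named from Reln and the rest of the set. Barhl2 had 15 UMIs there, in 10 cells. Lhx1os had 51 of its 76 wild-type UMIs there, and genes entered only with at least 50. How far r rests on that profile was not tested, so r is given as a description.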

How the data were processed

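The authors deposited 1 matrix of UMI counts per gene and barcode for each library, and the counts are not normalized. The submitters' processing notes name Cell Ranger 7.1.0 and the mm10 build. Each library gives 1 column of barcodes, and the totals were 88905819 UMIs in 13033 wild-type and 155482657 UMIs in 27663 Gmnc-/- barcodes. Barcodes with at least 1000 UMIs and under 10% mitochondrial UMIs were kept, and Scrublet doublets were removed within each library. Cells of both libraries were clustered with scanpy 1.11.5 and leidenalg 0.10.2 (2000 variable genes, 30 principal components, 15 neighbours, resolution 1). Mitochondrial genes, Trp73 and the listed genes of the multiciliated programme were left out of the clustering. A cluster was named only from marker lists, with at least 3 detected markers, and 5 of 35 clusters stayed unnamed. Classes can therefore include dividing cells. The interneuron-like class holds a cluster led by Top2a and histone genes (647 wild-type and 1217 Gmnc-/- cells). The astroglia-like class holds a cluster led by Ccnb1 and Prc1 (332 and 696 cells). Each had 0 markers of its class among its 10 leading genes.

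Counts were summed per library and class, divided by the summed UMIs and given as CPM. Ratios are Gmnc-/- over wild-type with exact conditional intervals, levels have exact Poisson intervals and shares of cells Clopper-Pearson ones, all at 95%. Genes with at least 10 UMIs over both libraries were compared. The ratio and interval code was tested on simulated data. The genes named are the 10 of the set, the fixed lists, and the 5 genes most alike in level to Reln and to Trp73 among 13803 with at least 50 wild-type UMIs; clusters and single cells were singled out after their values were seen. 1 gene that this rule names is not reported here. The gene set and the lists were chosen with earlier results of these data known. The alternatives were other filters, clusterings, depths and scalings, doublets kept, and cells of 1 sex pattern.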

Additional observations from a re-analysis of the deposited data

Results flagged for a closer look

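The wild-type matrix held 44735 UMIs of a feature named Stop-Ai9 and 2511 of one named Tomato in kept cells, and the Gmnc-/- matrix 21245 and 1525. The sample labels used here do not mention these features, and no comparison above uses them. Stop-Ai9 was at 568 CPM among wild-type and 196 CPM among Gmnc-/- cells. It was at 509 and 26.8 CPM in female-pattern cells, and at 811 and 413 CPM in male-pattern cells. The libraries and the sex-pattern groups compared above therefore also differed in this feature, and its part in their values was not tested. In the wild-type Cajal-Retzius-like cells there were 35 Stop-Ai9 and 27 Tomato UMIs, and 1 cell held 14 of the Tomato UMIs, so no ratio is given.

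In the wild-type library 17 barcodes with 5 or more of the 10 genes lay outside the cell filter, and no Gmnc-/- barcode did.

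For 6 values the ratio in male-pattern cells lay on the other side of 1 from that in female-pattern cells; the differences were not tested. Over all kept cells these were Ebf2 (3.28 in male-pattern and 0.503 in female-pattern cells) and Cacna2d2 (1.21 and 0.863). Outside Cajal-Retzius-like cells they were Reln (1.01 and 0.466) and Ebf2 (3.93 and 0.654), and outside Cajal-Retzius-like and ependymal-like cells again Reln (1.02 and 0.475) and Ebf2 (3.87 and 0.633). The male-pattern interval of Reln outside Cajal-Retzius-like cells spans 1 (0.821 to 1.24). The Ebf2 values rest on few UMIs, with 1 female-pattern wild-type cell holding 25 and 1 male-pattern Gmnc-/- cell holding 17.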

How the results depend on the processing

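No paired analysis was possible because each genotype has 1 library. The ratio of Reln over all kept cells (0.188) was 0.154 with the looser filter, 0.236 with the stricter one, 0.156 over every barcode, 0.166 in female-pattern and 0.376 in male-pattern cells. The count of 6 genes at 0.5 or less was 3 in male-pattern cells and 3 with 5 CPM added. Among male-pattern cells Lhx1 was under the 10 UMIs asked for. The share of wild-type Reln UMIs in Cajal-Retzius-like cells (68.1%) was 74.3% when cells were picked by 3 or more of the 10 genes, and 65.6% by 5 or more. With doublets kept, these cells lay in a cluster of 425 wild-type and 693 Gmnc-/- cells led by Fam19a1 and Nrgn, genes of an excitatory neuron-like cluster, which held 75.6% of Reln UMIs and is not a Cajal-Retzius-like share. Outside Cajal-Retzius-like cells the Reln ratio (0.541) was 0.596 with the pick by 3 or more genes, 0.475 outside that merged cluster, 0.466 in female-pattern cells and, reversed, 1.01 in male-pattern cells. The count of 3 genes outside both classes was 1 in male-pattern cells, where Lhx1 and Lhx5 were under the 10 UMIs asked for. It was 4, with Reln added, in female-pattern cells (background 6.59%) and with doublets kept, outside the merged cluster (background 5.52%). A count of 4 in place of 3 was within the limit set for counts. The ratio of cells with both Trp73 and Reln (0.0226) was 0 in male-pattern cells (2 of 1432 against 0 of 4991, which allows up to 0.0601%) and 0 after thinning to 1000 UMIs (15 of 10478 against 0 of 21184, up to 0.0142%). The other 46 settings of these results stayed within the limits set for them. Of the values of single genes, 78 did and 15 moved. The cause of these changes was not tested. Some of the 46 settings could not move, or hardly could. Leaving out the 2 wild-type cells with no Reln cannot change a share of Reln UMIs. Clustering without the 10 genes or at other resolutions gave 37 or 36 of the same 37 wild-type cells. With 1 library per genotype, no value separates genotype from library.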
